A study of Mus musculus with 3 samples.

Results

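Cadherins and protocadherins are the adhesion genes examined here, by the LMX1B occupancy recorded around them in the mouse limb bud. The members were all protein-coding RefSeq genes whose symbol is Cdh followed by a number alone or begins with Pcdh. There were 92 of them among 21775 protein-coding genes on the mm10 chromosomes: 23 Cdh genes, 12 solitary Pcdh genes and 57 clustered protocadherins. Both ChIP-seq samples came from C57BL/6 embryos at embryonic day 12.5, from pooled fore and hind limbs in 2 runs of 48 buds each, and used the BMO8 polyclonal antibody against LMX1B. The first ChIP is marked wild-type by its track name, and the validation ChIP, titled as a validation of the antibody, carries no genotype. The input DNA, which pooled wild-type and mutant chromatin, was not analysed here. Because whole buds were pooled, dorsal and ventral tissue, or one cell type and another, cannot be separated.

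Each sample gave 1 list of intervals (called peaks), with a summit and a whole-number score from the authors for each. An interval of the first ChIP was called shared when it overlapped a validation interval by at least 1 bp. The domain of a gene took in its body and the flanks on either side, each up to the neighbouring protein-coding gene or for 1 Mb at most. An interval counted for a gene when its midpoint lay in that domain. With 1 sample per group there is no spread between replicates and no test, and read depth is unknown.

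As background, classical cadherins are calcium-dependent receptors that hold like cells together and anchor to actin through catenins. Type I members such as E- and N-cadherin make strong junctions, and type II members sort cells into tissues and compartments. Delta protocadherins give weaker, more selective contacts, and clustered protocadherins give single neurons an identity code. In the limb bud, E-cadherin marks the ectoderm, while N-cadherin and cadherin-11 belong to the mesenchyme that condenses into skeleton. LMX1B is the transcription factor of the dorsal mesenchyme.

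Intervals were found around 20 of the 92 genes and gathered around a few of them. In the first ChIP, 13 members (14.1%) had at least 1 interval in their domain, against 6.04% of all protein-coding genes. In the validation ChIP, 19 members (20.7%) had one, against 15.1% of all genes. Shared intervals lay in the domains of 10 members (10.9%), against 3.41% of all genes. All 10 were solitary genes: Cdh2, Cdh5, Cdh6, Cdh9, Cdh11, Cdh22, Pcdh9, Pcdh15, Pcdh17 and Pcdh18.

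Domain length moves with these shares, since a longer domain can hold more intervals. The median domain was 159 kb for the members, 1540 kb for the 35 solitary ones and 67.3 kb for all protein-coding genes. Among domains of at least 159 kb, 21.7% of 46 members and 10.2% of 5708 genes held a shared interval. The first ChIP gave 28.3% of these members and 14.8% of the genes, and the validation ChIP 41.3% and 36.4%. Among domains of at least 1 Mb, shared intervals lay in 9 of 22 member domains (40.9%), against 22.5% of 892 such genes. First-ChIP intervals lay in 12 of these 22 (54.5%, against 29.4%) and validation intervals in 15 (68.2%, against 56.4%). These cuts on length do not equalise it: the median domain of at least 1 Mb was 2050 kb for the members and 1230 kb for all genes, and of at least 159 kb it was 743 kb and 347 kb. The median number of validation intervals per domain of at least 1 Mb was 1 for the members and 1 for all genes.

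Counted per length rather than per gene, the members did not hold more intervals than other domains. Their domains covered 45.4 Mb of the 2630 Mb of all protein-coding domains. They held 12 shared intervals, each counted once, or 0.264 per Mb (exact 95% Poisson interval 0.137 to 0.462, counting error only), where all domains held 0.266 per Mb. The 16 first-ChIP intervals came to 0.353 per Mb (0.201 to 0.572), against 0.485. The 49 validation intervals came to 1.08 per Mb (0.799 to 1.43), against 1.70 over all domains and 1.5 over domains of at least 1 Mb. The larger share of member genes with an interval therefore stood beside a density at or below that of all domains. The intervals were also unevenly spread: Cdh11, Cdh5 and Pcdh18, singled out after their values were seen, held 20 of the 49 validation intervals in 4.16 Mb, or 4.81 per Mb. The other 32 solitary genes held 29 in 40.6 Mb, or 0.715 per Mb.

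**Figure D1:**
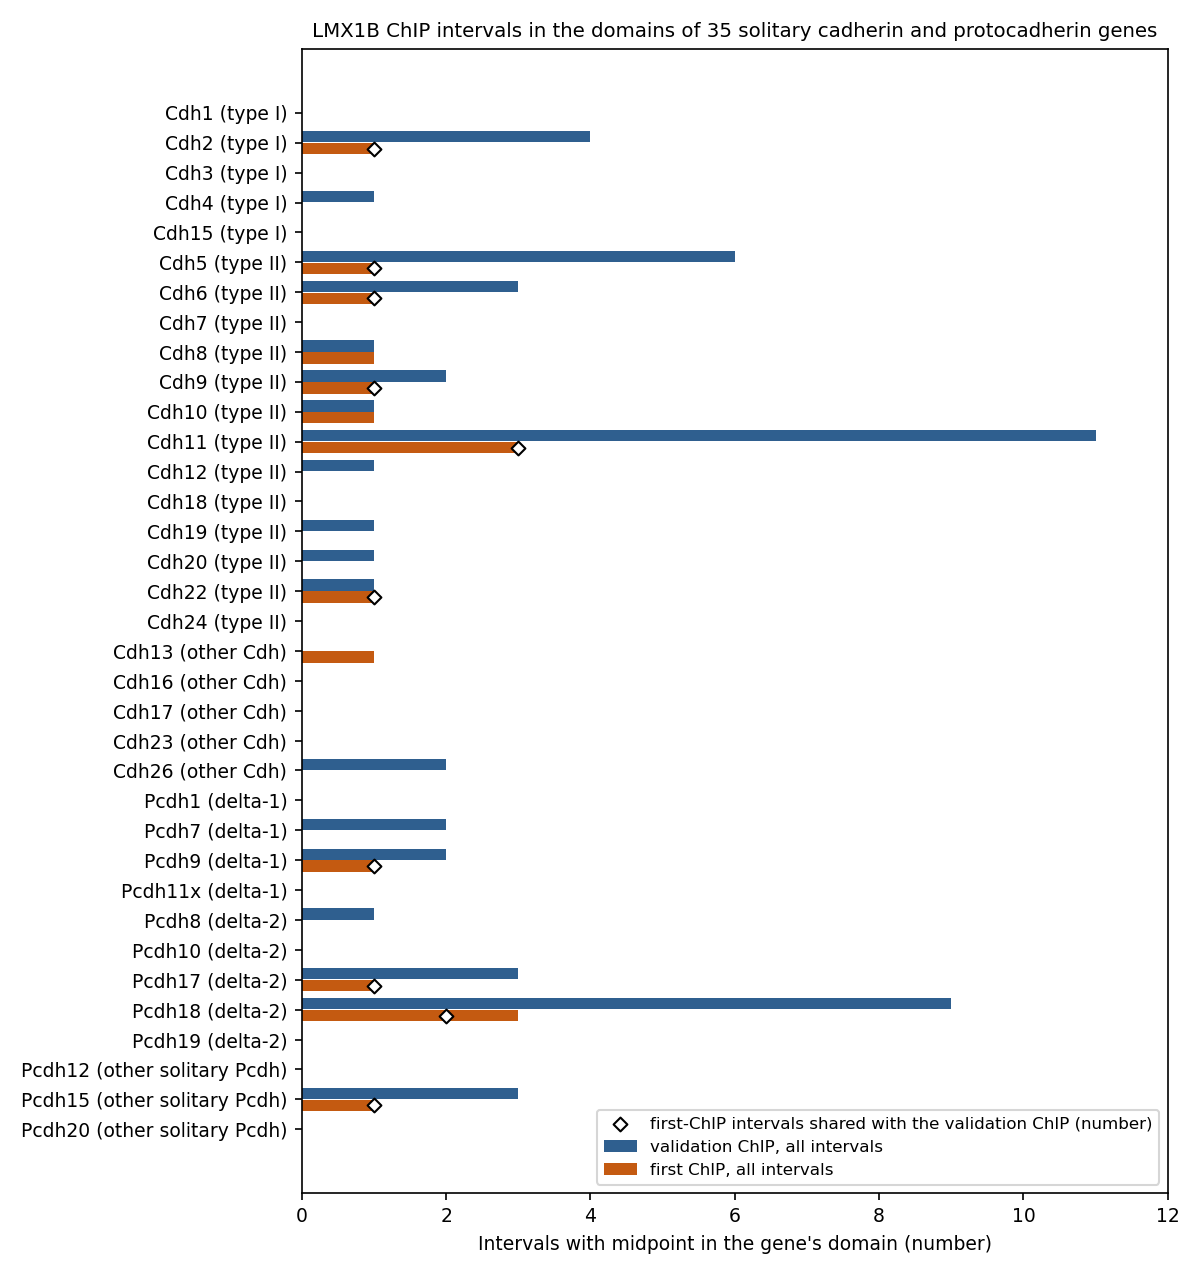
Number of intervals in the domain of each of the 35 solitary genes, grouped by family; blue bars are the validation ChIP, orange bars the first ChIP, and diamonds give how many first-ChIP intervals are shared. Cdh11 (11 validation intervals) and Pcdh18 (9) stand above the rest, and 15 genes have no bar; intervals between Cdh11 and Cdh5 can count for both.

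**Figure D2:**
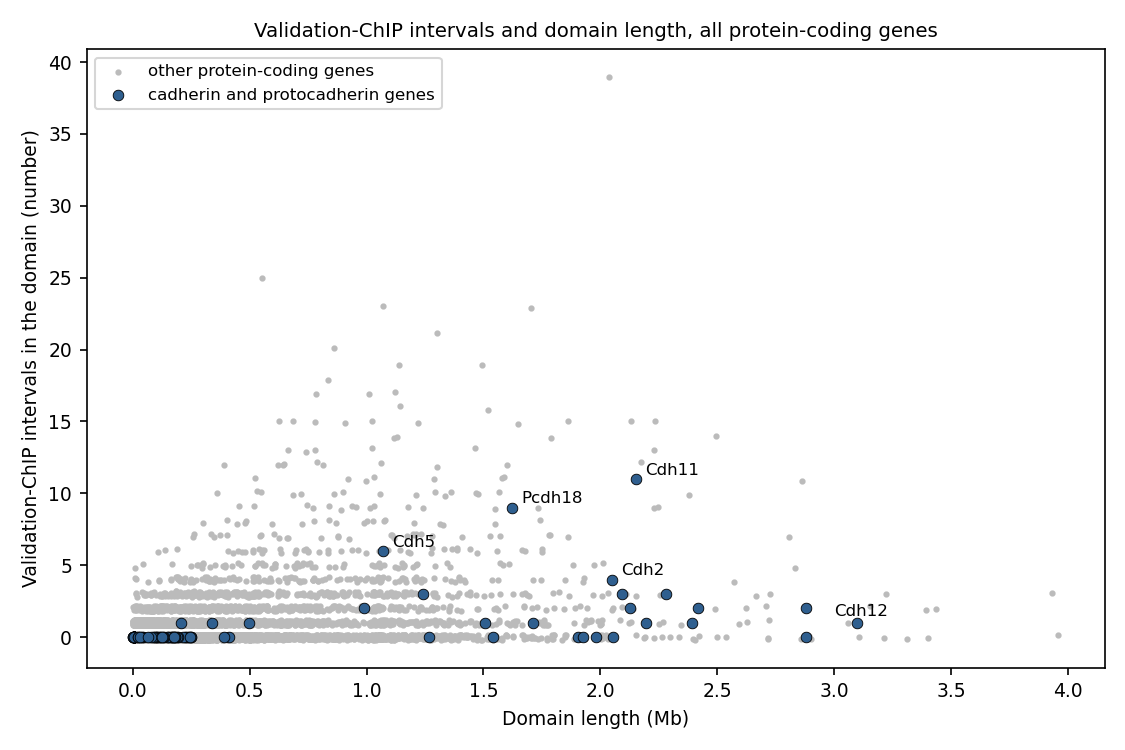
Validation-ChIP intervals per domain (number, spread slightly in the vertical for the grey points only) against domain length in Mb for all 21775 protein-coding genes, with the 92 members in blue. Cdh11 and Pcdh18 lie high for the members, while Cdh12, with the longest member domain (3.1 Mb), has 1 interval.

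Among the type I cadherins, Cdh2 and Cdh4 were the members with an interval. Cdh2 encodes N-cadherin, which mediates the condensation of limb mesenchyme (chr18:16588877-16809246). Its 1 first-ChIP interval, at 16437464 to 16437770 with a score of 20, overlapped a validation interval at 16437554 to 16437979 with a score of 9. This pair lay 151 kb beyond the end of the gene with the lower coordinate, and the summits were 48 bp apart. The other 3 validation intervals of Cdh2 were not shared: 1 in the gene body (score 10) and 2 at 574 kb and 582 kb beyond the other end (scores 10 and 13). Cdh4, which encodes R-cadherin, had 1 validation interval in its body, with a score of 12, and none in the first ChIP.

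Cdh1, which encodes the E-cadherin of epithelia, Cdh3, which encodes P-cadherin, and Cdh15, the cadherin of muscle precursors, had no interval in either list. Their domains were short, at 126 kb for Cdh1, 176 kb for Cdh3 and 65.4 kb for Cdh15, since each has close neighbours. Cdh1 and Cdh3 adjoin each other, so the sequence between them belongs to both domains. At the density of all domains, a stretch this short holds few intervals of either list, so that an empty domain says little about these genes.

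The type II cadherins held most of the intervals near Cdh genes, with 10 of 13 members occupied in the validation ChIP and 5 with a shared interval. Their median domain was 1910 kb, and of all domains of at least 1 Mb 56.4% held a validation interval and 22.5% a shared one. They held 22 of the 29 validation intervals of Cdh genes, in 19.5 of the 25.6 Mb. The density was 1.13 per Mb, the same as over all Cdh genes, against 1.5 over all domains of at least 1 Mb. The domains of Cdh11 and Cdh5 together held 11 of the 22. Cdh11 encodes cadherin-11 (OB-cadherin), the adhesion receptor of loose mesenchyme and bone-forming cells (chr8:102632095-102785493). Its domain of 2150 kb held 3 first-ChIP intervals, all shared, and 11 validation intervals. At least as many validation intervals were found in 53 protein-coding domains (0.243%), or 3.70% of those of at least 1 Mb. At least 3 shared intervals were found in 73 (0.335%), or 4.15% of the long ones. Cdh11 is thus among the fuller of the domains of at least 1 Mb, without being alone. The median of those domains was 1230 kb, and no set matched to the length of the Cdh11 domain was compared.

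None of the Cdh11 intervals lay in the gene itself. The pair with the highest scores lay 198 kb beyond the end with the higher coordinate: 102983140 to 102984212 in the first ChIP (score 30) and 102982945 to 102984295 in the validation ChIP (score 28). The validation score was at or above 98.2% of its list, and the summits were 48 bp apart. A further pair lay 605 kb beyond the opposite end, at 102027029 to 102027465 (first ChIP, score 27) and 102026803 to 102027648 (validation ChIP, score 13). The third pair, at 103306769 to 103307065 (first ChIP, score 16) and 103306431 to 103306953 (validation ChIP, score 9), had summits at the same base and lay in the long non-coding RNA gene Gm39234. It ranked low in each list, with 13.6% of first-ChIP and 24.0% of validation scores at or below it.

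Of the 11 validation intervals, 10 lay on the side of Cdh11 that faces Cdh5, the gene of VE-cadherin in endothelium. The stretch between both gene bodies is 1.32 Mb long (chr8:102785494-104101612) and held these 10 intervals, or 7.60 per Mb. It was singled out after its intervals had been seen, which raises this density, and other stretches between genes were not counted. By distance, 8 of them were nearer to Cdh11 and 2 to Cdh5. Because the domains overlap, 6 of these validation intervals and 1 first-ChIP interval counted for both genes. Cdh5 had no other interval, and its 1 shared interval was the one in Gm39234, 795 kb away from it. Over the Cdh11 domain the validation intervals spanned 1670 kb, with a median spacing of 91.9 kb and scores from 8 to 28 with a median of 13.

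**Figure D3:**
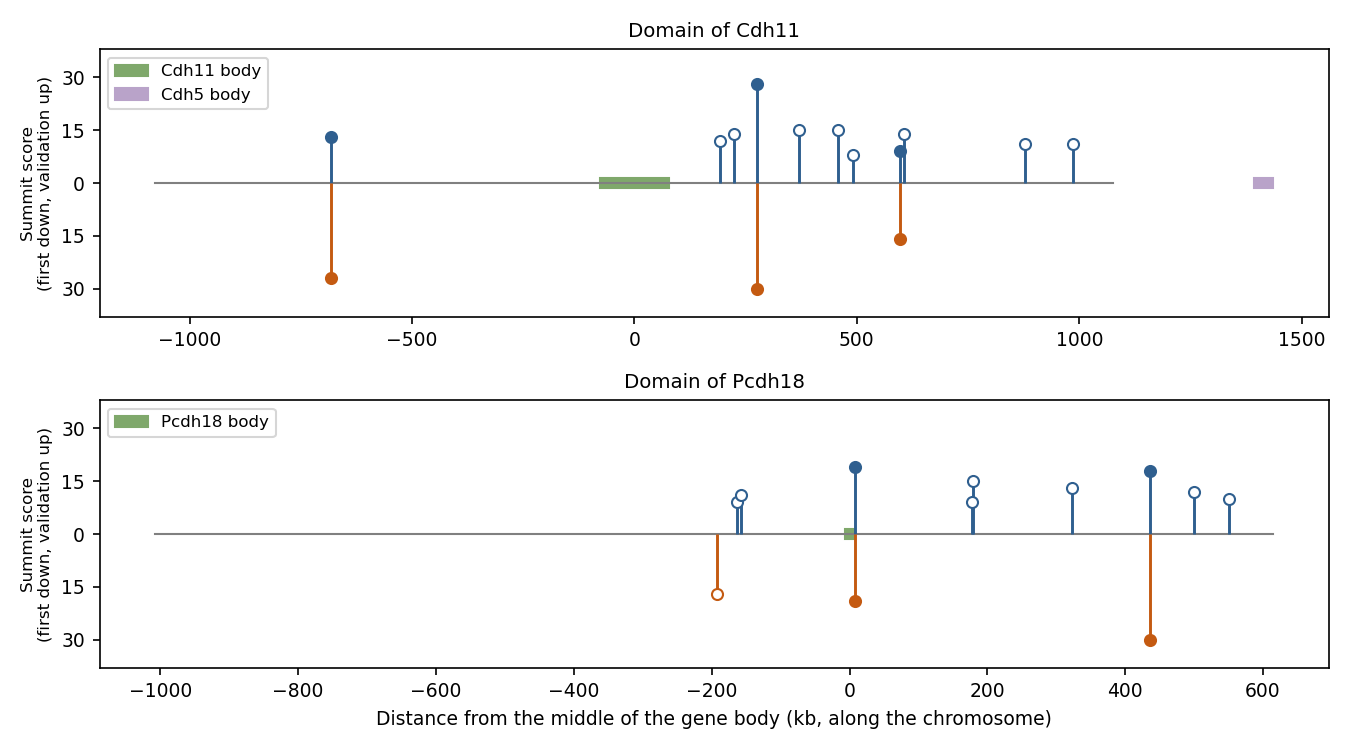
Intervals in the domains of Cdh11 (top) and Pcdh18 (bottom) by distance from the middle of the gene body, in kb along the chromosome; stems give the summit score, upwards for the validation ChIP and downwards for the first ChIP, filled where the lists overlap, and the grey line is the domain. Validation stems gather on one side of Cdh11, towards Cdh5, and on both sides of Pcdh18, with a filled pair at the Pcdh18 gene end.

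Cdh6 and Cdh9, neighbouring type II genes on chromosome 15, carried high-scoring pairs. Cdh6 encodes K-cadherin, known from kidney and neural crest (chr15:13028699-13176407, minus strand). Inside its body, 107 kb downstream of the start site, the first-ChIP interval at 13066679 to 13067264 (score 29) overlapped the validation interval at 13066686 to 13067469 (score 18). Another validation interval (score 11) followed after a gap of 142 bp, and one more lay 928 kb upstream (score 11). Whether the pair lies in an exon or an intron was not resolved, since exons were not used here.

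Cdh9 encodes a type II cadherin known from synapses (chr15:16728550-16857138, plus strand). It had the highest validation score of any member: 36, the 24th rank of the list, at 15946445 to 15947373, over the first-ChIP interval at 15946284 to 15947102 (score 30). Both summits fell on the same base, 782 kb upstream of the Cdh9 start site and outside genes. A further validation interval, with a score of 10, lay 192 kb beyond the other gene end.

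The promoters of these same genes share a run of letters, shown here because both genes carry high-scoring pairs, although no interval lay at either promoter. The RefSeq sequences of GRCm38.p6 (the assembly of mm10) around it are given 5′ to 3′ along each gene's strand, chr15:13173676-13173713 for Cdh6 and chr15:16728686-16728740 for Cdh9, with the shared run in capitals.
Cdh6: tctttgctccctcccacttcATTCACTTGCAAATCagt
Cdh9: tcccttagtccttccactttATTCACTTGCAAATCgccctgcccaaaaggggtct
The 15 letters begin 18 bases before the start site in Cdh6 and 209 bases before it in Cdh9. Searched on both strands, the run was in 2 of 32851 promoter windows of 300 bases (0.00609%), and those were the windows of Cdh6 and Cdh9. It was looked for after the sequences had been seen, so its presence in the windows of Cdh6 and Cdh9 was given in advance. How often promoters of other genes share a run this long was not counted. Of the 22 members with a promoter sequence, Cdh26 and Pcdh7 were the other pair that shared a run of 15 letters. The match describes the letters of these windows and no site.

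Cdh22, a type II cadherin known from brain, had its pair in the gene body, 58.1 kb downstream of the start site. The first-ChIP interval, at chr2:165176366-165176816, and the validation interval, at chr2:165176103-165176949, each had a score of 23. Its domain of 205 kb was the shortest among the members with a shared interval. The validation score was at or above 96.2% of its list.

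Cdh8 and Cdh10, also known from neurons, had 1 interval in each list, and in neither gene did the lists overlap. In Cdh8 the first-ChIP interval (score 18) and the validation interval (score 8) were 135 kb apart. In Cdh10 the first-ChIP interval (chr15:18821429-18821749, score 19) lay 1.26 kb downstream of the start site, and the validation interval (score 9) lay 213 kb downstream of it. Cdh12, Cdh19 and Cdh20 each had 1 unshared validation interval, with scores of 12, 9 and 16. That of Cdh19 lay nearer to Dsel than to Cdh19. Cdh7, Cdh18 and Cdh24 had none. The empty domains were 12.6 kb long for Cdh24, 1910 kb for Cdh7 and 2880 kb for Cdh18. Long empty domains were common: 381 of all 892 domains of at least 1 Mb held no interval of either list. The same held for 6 of the 22 member domains of that length.

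Of the other Cdh genes, Cdh13 and Cdh26 had unshared intervals. Cdh13 encodes T-cadherin, which is held in the membrane by a lipid anchor, and its 1 first-ChIP interval (score 19) lay in the gene body, which is 1180 kb long. Cdh13 was the one member occupied in the first ChIP and not in the validation ChIP. Cdh26 had 2 validation intervals, with scores of 11 and 9, at 305 kb and 480 kb beyond the gene. The farther one lay nearer to another protein-coding gene. Cdh16 and Cdh17, named for kidney and for liver and intestine, and Cdh23, which forms the tip link of hair cells together with protocadherin-15, had none.

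Among the delta-2 protocadherins, Pcdh18 was the member with an interval pair at its start. Pcdh18 encodes a solitary protocadherin (chr3:49743291-49757383, minus strand), and its domain of 1620 kb held 3 first-ChIP intervals, 2 of them shared, and 9 validation intervals. At least 9 validation intervals were found in 86 protein-coding domains (0.395%), or 5.72% of those of at least 1 Mb. At least 2 shared intervals were found in 0.799% of domains, or 8.30% of the long ones. Like Cdh11, it was among the fuller of the domains of at least 1 Mb without being alone, and no set matched to its length was compared.

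The pair at the start of Pcdh18 had a score of 19 in each list, at or above 92.5% of the validation scores and 44.7% of the first-ChIP scores. The first-ChIP interval, at 49757654 to 49757970, began 338 bp upstream of the start site, and the validation interval, at 49757226 to 49758148, contained the start site. Summits lay 461 bp upstream in the first ChIP and 413 bp upstream in the validation ChIP. The validation interval covered all 300 bases of the promoter window, while the first-ChIP interval began 87 bp beyond its edge. A validation interval overlapped 1 of 25 member promoter windows, this one, against 1.43% of all 32851 windows. A first-ChIP interval overlapped none of the 25, against 0.813%.

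The 250 bases before the Pcdh18 start site are shown because, of the 25 member promoter windows, this is the one under an interval. Those windows belong to 22 members, and Cdh2, Cdh5 and Cdh11 have none. The sequence is from RefSeq (GRCm38.p6, chr3:49757317-49757566, minus strand, 5′ to 3′), with the TAAT core that homeodomains bind in capitals.
Pcdh18: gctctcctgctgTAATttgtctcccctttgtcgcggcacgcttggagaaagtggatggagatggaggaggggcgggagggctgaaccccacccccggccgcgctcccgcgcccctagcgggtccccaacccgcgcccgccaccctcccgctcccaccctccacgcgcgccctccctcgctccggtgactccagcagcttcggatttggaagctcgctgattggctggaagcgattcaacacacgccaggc
Of these bases 68.0% were G or C, where the median over all promoters was 52.4% and over the member promoters 58.4%. The TAAT core (or ATTA, its reverse complement) occurred 1 time, 238 to 235 bases before the start site. It was chosen after the sequences had been seen, and 58.0% of all promoter windows hold it, so its presence here is not a result.

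The remaining Pcdh18 intervals lay away from the gene. The second shared pair, 429 kb upstream, had a first-ChIP score of 30 (50185828 to 50186357) and a validation score of 18 (50185785 to 50186477). It lay closer to Slc7a11, which encodes a cystine transporter, than to Pcdh18. Unshared validation intervals lay 165 kb and 170 kb downstream of the start site (scores 11 and 9). Others lay 171, 172, 317, 493 and 544 kb upstream (scores 9, 15, 13, 12 and 10). Those at 171 and 172 kb were 8 bp apart. The unshared first-ChIP interval, 199 kb downstream with a score of 17, was 28.4 kb from the nearest validation interval. In all, 4 of the 9 validation intervals were nearer to Slc7a11.

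Pcdh17, a delta-2 protocadherin known from axon growth, had 1 shared pair 772 kb downstream of its start site, outside genes (chr14). The first-ChIP interval, at 85215068 to 85215395, had a score of 19, and the validation interval, at 85214967 to 85215597, a score of 13. Its other 2 validation intervals, 103 kb and 173 kb downstream of the start site, had scores of 8 and 9, near the low end of the list. Pcdh8, the paraxial protocadherin of somites, had 1 unshared validation interval (score 13) 200 kb upstream, in the long non-coding RNA gene Gm6999. The nearest protein-coding gene of this interval was Olfm4. Pcdh10 and Pcdh19 had no interval in domains of 2060 kb and 1270 kb.

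The delta-1 protocadherins had fewer intervals for their length, with 4 validation intervals in 7.53 Mb (0.531 per Mb, 0.145 to 1.36) against 13 in 7.38 Mb for delta-2 (1.76 per Mb, 0.938 to 3.01). Without Pcdh18, delta-2 would hold 4, and the difference between the families was not tested. Pcdh9 had a shared pair in its body, 427 kb downstream of the start site (chr14), with scores of 21 in the first ChIP (93463515 to 93463855) and 10 in the validation ChIP (93463602 to 93464209). An unshared validation interval with a score of 17 lay 806 kb beyond the gene. Pcdh7 had 2 unshared validation intervals, 1 of them in its body (score 18) and the other 621 kb beyond the gene (score 13). Pcdh1 and Pcdh11x had none.

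Pcdh15, which encodes the other tip-link protein of hair cells, had a shared pair with a score of 20 in each list. The pair lay 228 kb from the low end of the gene body, outside genes, at 72867935 to 72868293 in the first ChIP and 72867809 to 72868539 in the validation ChIP (chr10). The nearest protein-coding gene there was Zwint, which encodes a kinetochore protein. A validation interval with a score of 9 lay in the Pcdh15 body, 4.67 kb upstream of the start site in the promoter table, and another (score 13) lay 318 kb beyond the low end. Pcdh12, of endothelium, and Pcdh20 had none.

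The clustered protocadherins had no interval in either list. This locus on chromosome 18 (chr18:36930285-37841873) holds 14 alpha, 22 beta and 21 gamma genes, which share constant exons within the alpha and gamma groups, so these genes are not independent of each other. Its span of 912 kb would hold 1.55 validation and 0.442 first-ChIP intervals at the density of all domains, and the domains of its genes, which cover 0.647 Mb and reach past both ends of that span, allow up to 5.7 intervals of a list per Mb at a count of 0 (exact 95% Poisson bound, counting error only). That bound lies above the density of all domains, so at this length the empty domains were not detectably poorer than others. The nearest validation interval lay 94.0 kb beyond the high end, nearest to Diaph1, and the nearest first-ChIP interval 790 kb beyond it. On the low side the nearest lay at 649 kb in the validation ChIP and 2170 kb in the first ChIP. The 57 empty genes form 1 locus, which lowers every share given over the 92 members.

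Most intervals near the solitary genes lay outside gene bodies, which make up the smaller part of their domains. Of the 49 validation midpoints, 40 (81.6%) were outside protein-coding genes, against 49.3% of all 4501 in the list. In gene bodies away from the ends there were 8 (16.3%, against 39.4%), and 1 was at a gene end, meaning closer to it than 1 kb (2.04%, against 11.4%). In the first ChIP 10 of 16 (62.5%) were outside genes, against 46.4% of 1287, and 1 lay at a gene end (6.25%, against 21.7%). The 1 interval at a gene end was in each list the one at Pcdh18. The flanks of a domain stop at the neighbouring gene body, while the whole list has no such limit. These shares therefore depend on the domain rule, and they were not compared over domains of at least 1 Mb. Flanks made up 34.7 Mb and bodies 10.1 Mb of these domains. Per Mb, validation intervals came to 0.794 in the bodies and 1.18 in the flanks of the solitary genes, while over all protein-coding genes bodies held 1.89 and flanks 1.58. The first-ChIP and shared intervals of the solitary genes ran the other way, on small counts. First-ChIP intervals came to 0.496 in bodies (5 intervals) and 0.317 in flanks (11), shared ones to 0.298 (3) and 0.26 (9). Over all protein-coding genes first-ChIP intervals likewise came to 0.587 in bodies and 0.42 in flanks, and shared ones to 0.268 and 0.264. In member domains of at least 1 Mb the shared ones turned round, with 0.228 in bodies and 0.276 in flanks. The first-ChIP ones did not, with 0.456 and 0.337. Over all domains of that length shared intervals came to 0.326 and 0.268, and first-ChIP ones to 0.532 and 0.376. Among domains of at least 1 Mb, flanks held 73.3% of the first-ChIP intervals of the members and 71.1% of those of all genes, a difference of little size. In the validation ChIP these shares were 86.4% and 69.5%. Where the strand was known, 13 validation intervals lay in upstream flanks, 13 in downstream flanks and 6 in bodies. Pcdh18 alone held 7 of the upstream and 2 of the downstream ones.

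Scores near the members were ordinary for each list. In the first ChIP the 16 scores ran from 16 to 30 with a median of 20, the same as the median of the whole list, whose highest score was 86. In the validation ChIP the 49 scores ran from 8 to 36 with a median of 12, against 11 for the list and a highest score of 55. Shared intervals had medians of 22 (first ChIP) and 18 (validation ChIP) near the members and 22 and 16 in the whole lists. The summits of the 12 member pairs were 0 to 144 bp apart with a median of 48 bp, and 10 pairs were within 100 bp. Of the 16 first-ChIP intervals 12 (75.0%) were shared, against 54.8% over all domains, and of the 49 validation intervals 12 (24.5%), against 15.5%. In domains of at least 1 Mb, which held 15 of the 16 and 44 of the 49, the members had 73.3% and 25% shared and all genes 68.3% and 18.4%. The 12 shared ones were also the ones in the deposited list of active regions, and the 4 unshared ones were not in it. That list was deposited with the intervals of both ChIPs, and how it was made was not given in the sources used here. Its match with the shared intervals is therefore not separate evidence of activity.

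**Figure D4:**
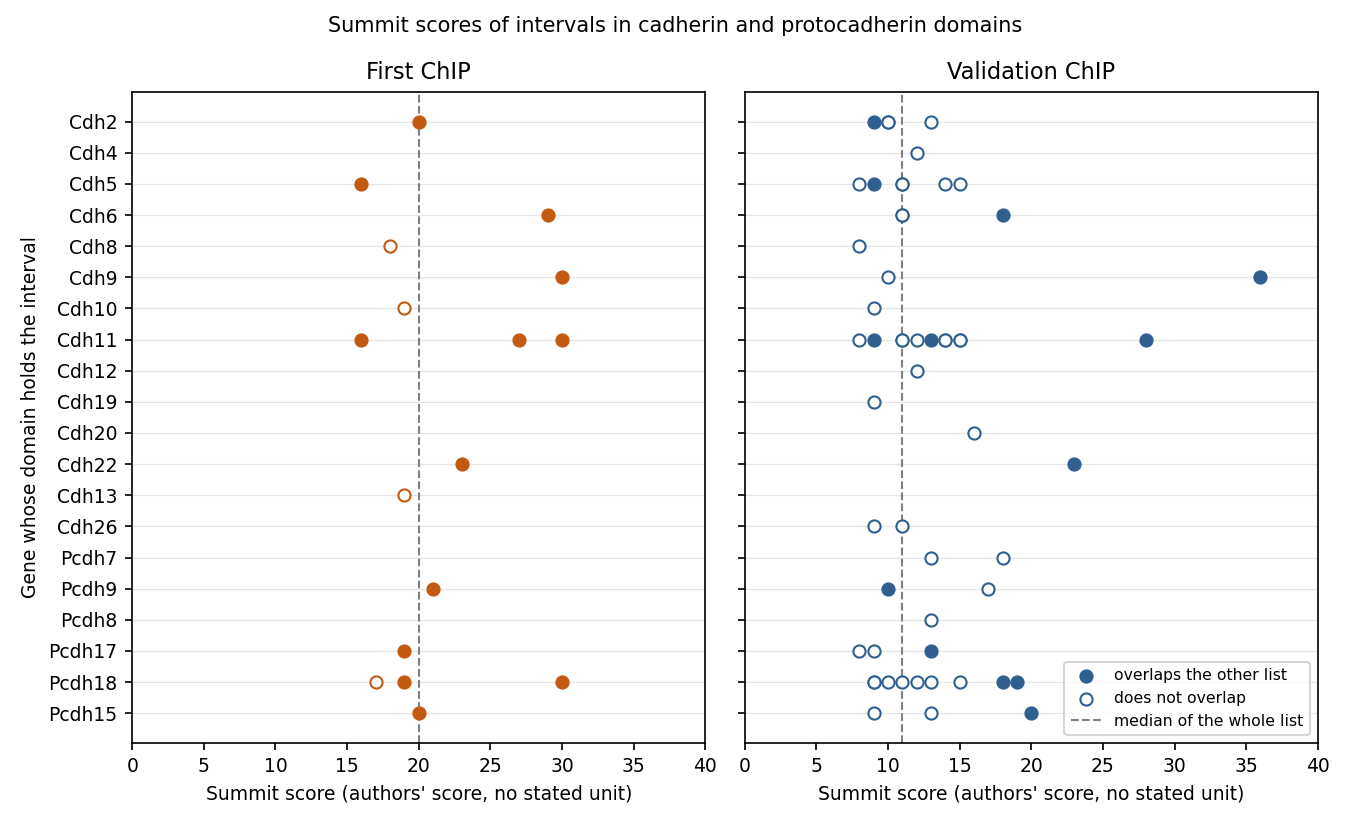
Summit scores (the authors' score, no stated unit) of each interval by the gene whose domain holds it, in the first ChIP (left) and the validation ChIP (right); filled points overlap the other list and dashed lines are the medians of the whole lists (20 and 11). Scores of 16 to 30 in the first ChIP and 8 to 36 in the validation ChIP surround those medians, with Cdh9 and Cdh11 highest in the validation ChIP; intervals between Cdh11 and Cdh5 are drawn for both.

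Promoter letters did not set the members apart from other genes by count. The homeodomain motif TAATTA, which is its own reverse complement, was in 1 of 25 member promoters (4%), that of Cdh7, against 5.29% of all windows. Its longer form TTAATTA (both strands), which contains TAATTA, was in none, against 3.07%. The E-box CACCTG (both strands), which Snail and Zeb repressors bind in cadherin promoters, was in 5 (20.0%, against 20.2%), from Cdh7, Pcdh7 and Pcdh15. The E-box CAGCTG, its own reverse complement, was in 3 (12.0%, against 16.3%): Cdh9, Cdh12 and Pcdh15. A promoter was found for 22 of the 35 solitary genes and for no clustered one; Cdh2, Cdh5 and Cdh11 were among those with none.

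Other genes of cadherin adhesion were counted by the same rules. Of 48 genes, 6 (12.5%) had a first-ChIP, 12 (25%) a validation and 3 (6.25%) a shared interval in their domain, with a median domain of 157 kb. Over all genes these shares were 6.04%, 15.1% and 3.41%, and over domains of at least 159 kb 14.8%, 36.4% and 10.2%, so the shares of the 48 lay between both backgrounds. Shared intervals lay near Ctnnd2, which encodes the neural delta-catenin (2 shared, in a domain of 2050 kb). Others lay near the giant cadherin genes Fat3 and Fat4 (1 each). Fat4, which acts with Dachsous in planar polarity, had 7 validation and 3 first-ChIP intervals. Of the Fat, Dachsous and flamingo group, 4 of 9 genes were occupied in each list, the other occupied genes being Fat1 and Dchs2. The median domain of the 9 was 160 kb, but the occupied genes had the longest ones. These were 1530 kb for Fat4, 1630 kb for Fat3, 1140 kb for Fat1 and 639 kb for Dchs2. Of all domains of at least 1 Mb, 56.4% held a validation and 29.4% a first-ChIP interval. None of the 9 desmosomal cadherins had an interval. Their domains had a median of 98.1 kb, but that of Dsc3 was 1070 kb. Neither Ctnnb1, Ctnna1 nor Ctnnd1, the catenins of the classical cadherin complex, had one, in domains of 390, 147 and 182 kb. Among repressors of cadherin genes, Zeb2 had 3 unshared validation intervals and Zeb1 1 unshared first-ChIP interval, while Snai2 and Twist2 had 1 unshared validation interval each.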

How the data were processed

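Chromatin of limb buds was fixed in 1% formaldehyde for 15 min, sheared to 300 to 500 bp and precipitated, 30 µg with 20 µl of antibody, per the labels. BWA and build mm10 are named in the submitters' processing notes. How peaks were called, and at what cut-off, was not given in the sources used here. The deposited score is the authors' own, a whole number per summit with no stated unit or normalization. It was read only within its own list, and pairs are given side by side. The file of the validation sample held tracks of both samples, and its copy of the first-ChIP intervals matched the first sample's own file for all 1287 positions and scores. Tracks were tied to samples by their names.

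Genes came from the RefSeq table of GRCm38.p6, with 121 of 21896 protein-coding entries left out (mitochondrial, or starting before 3 Mb on autosomes and X). An end covered by another gene body got no extension. Positions count from 1. Promoter windows run from 250 bases before to 50 after a RefSeq start site. The members and lists were chosen with earlier results of these data known. Genes were named by a rule: every member with a shared interval, at least 3 intervals of a list or 1 of the 5 highest scores, with Cdh1, Cdh2, Cdh11 and the clustered locus. The remaining members are given to account for all. The comparison over domains of at least 1 Mb, the set of Cdh11, Cdh5 and Pcdh18, the TAAT core and the run shared by Cdh6 and Cdh9 were chosen after seeing the data. So was the stretch between Cdh11 and Cdh5. Overlap and domain functions were tested on simulated data. Python 3.11.15, numpy 2.4.6, pandas 2.3.3 and scipy 1.17.1 were used. Alternatives were stricter overlap, a score filter, other gene windows and assignment to the nearest gene. No genome sequence was used, so interval sequences are not shown.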

Additional observations from a re-analysis of the deposited data

How the results depend on the processing

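No paired analysis was possible because each group has 1 sample. Of 40 values under alternatives, 20 stayed within 1.5-fold of the count (or within the counting interval of the density). Shared intervals per Mb stayed within that interval in each alternative run, but the interval is wide (0.137 to 0.462), a looser mark than 1.5-fold. With the score filter this density went from 0.264 to 0.154 and counted as unchanged. The count of shared intervals, over the same domains, went from 12 to 7 and counted as moved. Counts moved where fewer intervals or shorter windows entered. With scores at or above the list median there were 6 genes and 7 intervals for shared, 8 and 9 for the first ChIP, and 32 validation intervals. With bodies extended by 50 kb there were 4 genes and 4 intervals for shared, 7 and 7 for the first ChIP, and 10 and 11 for the validation ChIP. With bodies alone these were 3 and 3, 5 and 5, and 7 and 8. Extension by at most 250 kb left 7 shared, 10 first-ChIP and 24 validation intervals. Thus most intervals assigned here lie far from the gene, and their assignment depends on the window. The unknown depth limits what an empty domain shows.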
